A study of Homo sapiens with 3 samples.

Results

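The 10 genes described here are the circadian clock genes NR1D2, NR1D1, PER1, PER2, PER3, CRY1, CRY2, CLOCK, DBP and BHLHE40, measured in BEAS-2B cells, an immortalised line derived from human bronchial epithelium. They are 10 of the 14904 genes that a probe with a single symbol gave a value for. The group was built around NR1D2, which was chosen by its low mean ratio on these same 3 arrays, and the other members were added as genes of the same loop, so the values of the 10 genes are a description and carry no test of their own. The tested cells received 0.144 µM MTX, the amount described as inhibiting by 20%, for 48 h after 24 h in culture, and their counterparts received the vehicle DMSO. MTX is written as in the labels. Total RNA of MTX-treated cells carried Cy5 and total RNA of DMSO-treated cells carried Cy3 on each of 3 arrays, with no dye exchange, so the study is 1 group of 3 ratios. A dye effect on a probe would recur on every array and cannot be told apart here from an effect of MTX. Every value below is a normalised log ratio of MTX over DMSO in deposited units. A positive value is read as higher with MTX from the dye labels, a direction that is likely but was not set against scanner intensities. The base of the logarithm is not given in the sources used here, so a fold is printed for a base of 10 and for a base of 2.

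The mammalian clock is a feedback loop of transcription factors. CLOCK pairs with BMAL1 and binds E-box elements, and this pair switches on the PER and CRY genes, whose proteins return to inhibit it. The same pair switches on NR1D1 and NR1D2, which encode the heme-binding nuclear receptors REV-ERBα and REV-ERBβ. These receptors repress BMAL1 and compete with the activating ROR receptors for shared elements. DBP, an activator of the PAR bZIP family, acts through D-box elements and is opposed by NFIL3, while BHLHE40 and BHLHE41 repress at E-boxes. Clock genes are known to cycle in bronchial epithelium and to respond to serum and glucocorticoids.

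The start regions of 9 of these genes held letters of the elements just named, and 1 such stretch is shown for each of 8 of them because the ratios below are ordered by the same roles. All 10 genes had at least 1 window of 300 bases in the RefSeq promoter table for GRCh38.p14, which gave 14 windows, each with 250 bases before an annotated start. Searched on both strands were the E-box CACGTG, the E-box variant CACGTT, the D-box TTATGTAA and a REV-ERB and ROR element, taken as A, any 2 bases, T, any base and then GGTCA. No match overlapped another. Capitals mark the matches, each line is read 5′ to 3′ along the gene, and a match on the opposite strand appears as its complement (AACGTG for the E-box variant, for example).
NR1D2, chr3:23945921-23946030, plus strand: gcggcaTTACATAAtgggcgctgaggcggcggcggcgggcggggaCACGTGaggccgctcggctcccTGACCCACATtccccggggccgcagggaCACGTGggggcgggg
NR1D1, chr17:40100735-40100774, minus strand: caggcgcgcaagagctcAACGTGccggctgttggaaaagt
PER1, chr17:8152555-8152594, minus strand: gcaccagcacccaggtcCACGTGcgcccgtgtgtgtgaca
PER2, chr2:238288785-238288824, minus strand: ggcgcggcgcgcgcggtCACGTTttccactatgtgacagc
PER3, chr1:7784097-7784136, plus strand: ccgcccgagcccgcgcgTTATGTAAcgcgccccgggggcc
CRY1, chr12:107093616-107093655, minus strand: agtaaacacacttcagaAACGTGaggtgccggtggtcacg
CLOCK, chr4:55546127-55546166, minus strand: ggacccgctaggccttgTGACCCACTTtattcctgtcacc
BHLHE40, chr3:4979187-4979226, plus strand: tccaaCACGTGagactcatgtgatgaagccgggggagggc
BMAL1, chr11:13277807-13277836, plus strand: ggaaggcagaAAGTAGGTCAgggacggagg

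The window at the second annotated start of NR1D2 held 2 E-boxes, 155 and 105 bases before the start, with 1 REV-ERB and ROR element between them at 133 bases and 1 D-box at 194 bases. The window at its first annotated start held none of these patterns. Whether the shown stretch is also exonic in transcripts from the first start is not given in the table. Across all 35116 windows, the E-box was present in 7.26%, the variant in 5.34%, the D-box in 0.886% and the REV-ERB and ROR element in 2.09%. Among the 10 clock genes, 3 had an E-box in a window (NR1D2, PER1 and BHLHE40), 5 had the variant (NR1D1, PER2, CRY1, CRY2 and CLOCK), 2 had a D-box (NR1D2 and PER3) and 2 had the REV-ERB and ROR element (NR1D2 and CLOCK). Counted in windows, as the shares are, these elements were in 3, 5, 2 and 2 of the 14 windows of the clock genes. DBP had none of them, and the variant matches of CRY2 and CLOCK are not printed. BMAL1 is shown beside them because its element, starting at position 28 from a start, is the textbook site through which REV-ERB represses it. These matches describe letters in a window and not binding in these cells.

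NR1D2 (Entrez gene 9975, chr3:23945286-23980617, GRCh38.p14) had the lowest ratio of the clock genes. The mean of its probes was -0.398, -0.372 and -0.341 on arrays 1, 2 and 3. All 3 arrays were low and close to each other. The gene mean was -0.37 ± 0.0281 (SD, n = 3), which is 2.35-fold lower with MTX for base 10 and 1.29-fold for base 2. Of the 9394 genes with a mean over all 3 arrays, NR1D2 had rank 9 from the lowest, and it stood at ranks 33, 38 and 38 on the single arrays.

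Both NR1D2 probes were low on every array, but not equally so. The probe designed on BC015929 read -0.545, -0.443 and -0.344 on arrays 1, 2 and 3. The probe designed on NM_005126 read -0.25, -0.302 and -0.339. Their gap was 0.296 on array 1, 0.141 on array 2 and 0.00499 on array 3, and because the probes deviated in opposite directions, the SD of the gene mean is smaller than the SDs of the single probes, 0.101 and 0.0449. The probe means, -0.444 and -0.297, differed by 0.147. For comparison, the 1862 genes with exactly 2 such probes had a median gap of 0.0808, and 24.5% of them had a larger gap than NR1D2. With the first probe alone, the value of NR1D2 was -0.444.

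**Figure D1:**
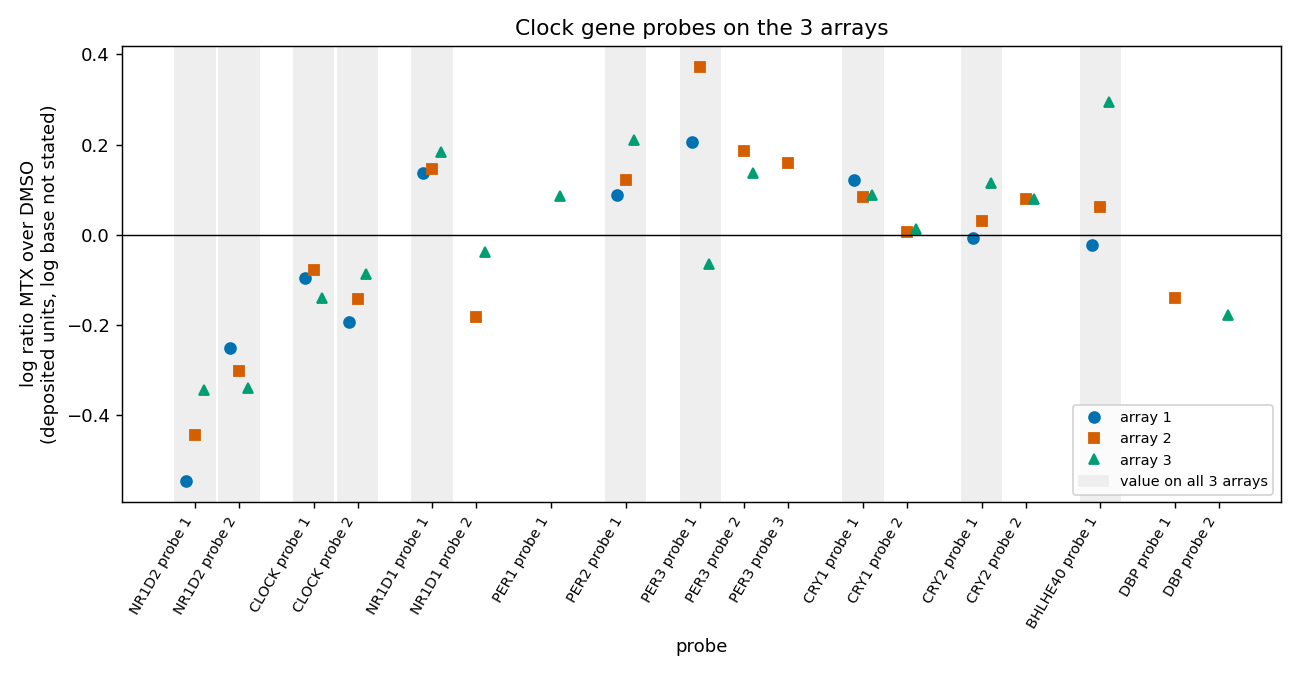
Log ratio of MTX over DMSO (deposited units, vertical axis) of the 18 clock gene probes on arrays 1 to 3, with grey bands behind the 10 probes that had a value on all 3 arrays. Both NR1D2 probes lie below -0.24 on each array, both CLOCK probes lie below 0, and the PER and CRY probes lie mostly above 0.

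NR1D1 (chr17:40092793-40100589), the paralogue of NR1D2, had the opposite sign. Its probe with values on all 3 arrays read 0.136, 0.145 and 0.184, with a mean of 0.155 ± 0.0254 (SD, n = 3), or 1.43-fold higher with MTX for base 10 and 1.11-fold for base 2. NR1D2 minus NR1D1 was -0.534, -0.518 and -0.526 on the 3 arrays, with an SD of 0.00793. That SD rests on the complete NR1D1 probe and on the average of 2 NR1D2 probes that deviated in opposite directions. The NR1D2 probes alone had SDs of 0.101 and 0.0449, so a difference this constant is not shown for single probes. A second NR1D1 probe, designed on the same accession, read -0.182 on array 2 and -0.0379 on array 3 and had no value on array 1. The complete probe lay 0.327 and 0.222 above it there. Averaged over probes that need only 2 arrays, NR1D1 had a mean of 0.0637. Array 1 entered that mean through the complete probe alone, and on array 2 the average of both probes was below 0. The sign of NR1D1 therefore rests on which of its probes is read, and the cause of their difference was not tested.

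Each REV-ERB gene overlaps a neighbour on the other strand, and the neighbour had the opposite sign, for NR1D1 on its complete probe alone. Its second probe, at -0.182 and -0.0379 on arrays 2 and 3, had the sign of THRA. NKIRAS1, which encodes a small GTPase-like inhibitor of NF-κB signalling, shares 1277 bases with NR1D2 in the RefSeq gene records. Among starts with a promoter window, the nearest of NKIRAS1 and NR1D2 lie 28231 bases apart. Transcripts from those NKIRAS1 starts would not reach the shared bases. NKIRAS1 read 0.123, 0.136 and 0.255, all above 0, with a mean of 0.171 ± 0.0727 (SD, n = 3, limma adjusted p = 0.0254). THRA, the thyroid hormone receptor α gene, shares 1075 bases with NR1D1 at their 3′ ends. It read -0.154, -0.179 and -0.132, all below 0, with a mean of -0.155 ± 0.0237 (SD, n = 3, limma adjusted p = 0.0138). The THRA probe on NM_003250 averaged -0.241 and the one on NM_199334 averaged -0.0685, and on NM_199334 alone THRA did not pass (adjusted p = 0.0843). The position of these probes relative to the shared bases was not analysed here.

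**Figure D2:**
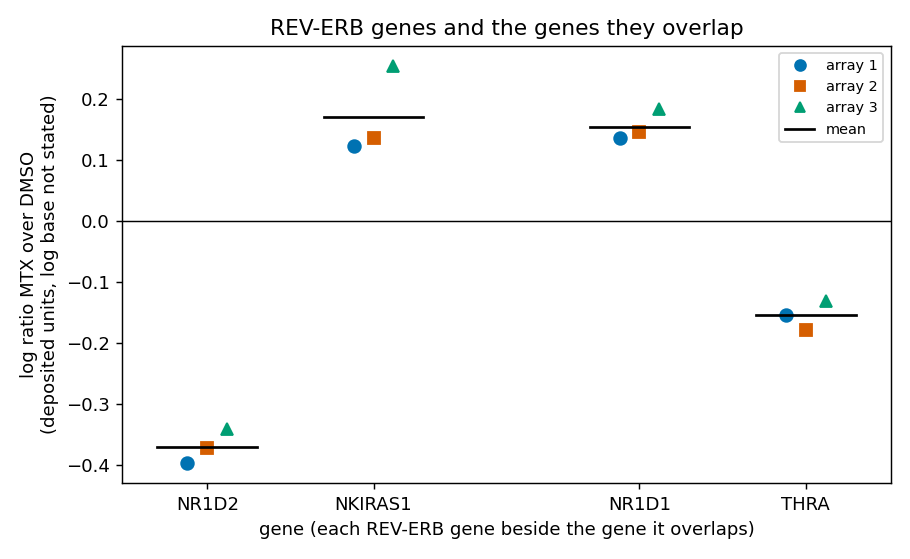
Log ratio of MTX over DMSO (deposited units, vertical axis) of NR1D2 beside NKIRAS1 and of NR1D1 beside THRA, with 1 symbol per array and a bar at the mean of 3 arrays. The NR1D2 and THRA points all lie below 0, and the NKIRAS1 points and those of the complete NR1D1 probe all lie above 0.

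The PER genes, which encode the period proteins that inhibit CLOCK and BMAL1, were on the positive side where they could be averaged. PER2 read 0.0874, 0.123 and 0.211 on its single probe, all above 0, with a mean of 0.14 ± 0.0637 (SD, n = 3), or 1.38-fold higher for base 10 and 1.10-fold for base 2. PER3 was uneven. Its complete probe read 0.206, 0.373 and -0.0649, the negative reading being that of array 3, with a mean of 0.171 ± 0.221 (SD, n = 3). The SD of PER3 was larger than its mean. A second PER3 probe read 0.187 on array 2 and 0.138 on array 3, and one more read 0.16 on array 2 alone, so on array 3 the complete probe and the second probe differed in sign. PER1, a direct target of the glucocorticoid receptor, had a value only on array 3, 0.0866, and entered no mean.

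The cryptochromes, which bind and inhibit the CLOCK and BMAL1 pair, had small positive means. CRY1 read 0.123, 0.0835 and 0.0883 on its complete probe, all above 0, and averaged 0.0982 ± 0.0214 (SD, n = 3), or 1.25-fold higher for base 10 and 1.07-fold for base 2. Its second probe read 0.00575 on array 2 and 0.012 on array 3, close to 0, and with both probes averaged the mean was 0.0725. CRY2 read -0.00601, 0.0298 and 0.114, with a mean of 0.0459 ± 0.0616 (SD, n = 3), and array 3 was the only one of its 3 readings above 0.1. Without array 3 its mean was 0.0119. A second CRY2 probe read 0.0785 on array 2 and 0.0804 on array 3.

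CLOCK (chr4:55427903-55546909), the histone-acetylating partner of BMAL1, was the other clock gene below 0 on every array. Its gene values were -0.145, -0.11 and -0.113, a narrow range, with a mean of -0.123 ± 0.0195 (SD, n = 3), or 1.33-fold lower with MTX for base 10 and 1.09-fold for base 2. Both of its probes were below 0 on all 3 arrays, at -0.096, -0.078 and -0.14 for the probe on NM_004898 and at -0.194, -0.142 and -0.0857 for the one on AK096319. Their means differed by 0.0359, a gap that 75.7% of the genes with 2 such probes exceeded.

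BHLHE40, a repressor known also as DEC1 that answers to many stimuli, was spread widely. It read -0.023, 0.0627 and 0.295 on its only probe, with a mean of 0.111 ± 0.164 (SD, n = 3), and the high reading belonged to array 3. Without array 3 its mean was 0.0198. DBP had no probe with values on all 3 arrays. One DBP probe read -0.14 on array 2 and the other read -0.177 on array 3, so both single readings were below 0 and no spread can be given.

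Set in order, the 8 clock genes with a mean over 3 arrays ran from NR1D2 at -0.37 and CLOCK at -0.123, through CRY2 at 0.0459, CRY1 at 0.0982, BHLHE40 at 0.111, PER2 at 0.14 and NR1D1 at 0.155, to PER3 at 0.171. The intervals of 1 SD around NR1D2 and CLOCK did not meet each other or those of any other of the 8 clock genes. From CRY2 upward each neighbour in this order lay within the SD of the next or of itself, so the order of adjacent positive genes is not resolved. NR1D1 and CRY1, which are not adjacent, did not meet within 1 SD, and NR1D1 was above CRY1 on all 3 arrays on their complete probes. With probes on at least 2 arrays their order turned, at 0.0637 for NR1D1 and 0.0725 for CRY1, so it is not resolved either. The median of the 8 means was 0.105, beside 0.00742 over all 9394 genes. Of the 8, 3 were above 0 on all arrays, beside 34.3% of all genes, and 2 were below 0 on all arrays, beside 29.3%, so 5 of 8 kept 1 sign, beside 63.6% of all genes. In the limma fit over all genes 5 of the 8 passed an adjusted p under 0.05, 3 higher (NR1D1, PER2 and CRY1) and 2 lower (NR1D2 and CLOCK). In the same fit 29.0% of all genes passed, 16.6% higher and 12.4% lower. Nothing is read from the count of clock genes, since they were chosen with this comparison known. In a fit that asked for values on 2 arrays instead of 3, 2 of the clock genes passed, which are not named here. Calls over all genes also went down in that fit, from 2726 to 1633, over a larger set of genes than the 9394. Nothing is read from this count either. The values of 8 genes came from 10 complete probes, and the remaining 8 probes were split evenly between 4 with values on 2 arrays and 4 with a value on 1.

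**Figure D3:**
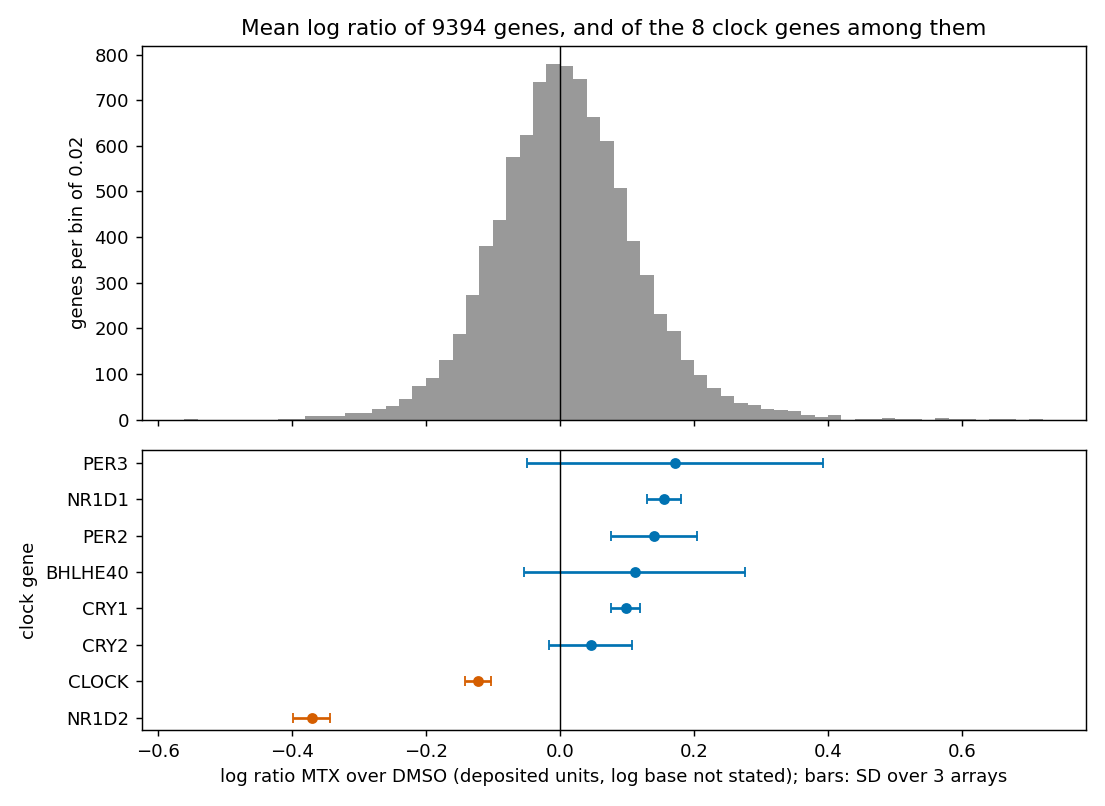
Upper panel, number of genes (vertical axis) by mean log ratio of MTX over DMSO (deposited units, horizontal axis) for 9394 genes; lower panel, mean and SD over 3 arrays of the 8 clock genes on the same axis. NR1D2 at -0.37 lies in the far lower tail, CLOCK at -0.123 lies below 0, and the other clock genes lie between 0.0459 and 0.171.

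The rest of the clock pathway was taken from 11 lists drawn up by role, without the 10 genes above. Of 95 listed genes 81 had a value, and 55 had a mean over 3 arrays. Among the 55, 11 rose, 7 fell and 37 did not pass (limma adjusted p under 0.05), against the 16.6% higher and 12.4% lower of all genes. In either direction 32.7% passed, beside 29.0% of all genes. For the lists below the share was 66.7% for cofactors of CLOCK and BMAL1 and 50% for genes repressed by REV-ERB. It was 28.6% for ubiquitin genes and for cAMP and glucocorticoid input, and 25% for corepressors. Kinases and phosphatases and E-box outputs had 20% each. The lists are small, and nothing is read from their counts. Their median was -0.00328, beside 0.00742 over all genes. The limma fit called 0 of the 55 without array 1, where 18 had an unadjusted p under 0.05, and 0 without array 2, where 16 did. Without array 3 there were 25 calls.

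Among the factors of the loop itself, BMAL1, the partner of CLOCK and a gene that REV-ERB represses, rose. It read 0.14, 0.119 and 0.175 with a mean of 0.145 ± 0.0281 (SD, n = 3, limma adjusted p = 0.0162), or 1.40-fold for base 10 and 1.11-fold for base 2. BHLHE41, the relative of BHLHE40, rose as well, reading 0.257, 0.298 and 0.223 with a mean of 0.259 ± 0.0373 (n = 3, limma adjusted p = 0.00971). NFIL3, the D-box repressor that REV-ERB also represses, read 0.163, 0.236 and 0.21 and rose by 0.203 ± 0.0369 (n = 3, limma adjusted p = 0.0112). For each of these 3 genes all arrays lay well above 0, and each rests on 1 probe. The activating receptor RORA averaged -0.00132 and did not pass (adjusted p = 0.968). BMAL2 and TIMELESS averaged -0.00249 and -0.00117 on their complete probes and did not pass either (adjusted p = 0.930 and 0.965). Single readings of further probes of these genes lay away from 0, at 0.289 on array 1 for TIMELESS and at -0.0857 and 0.255 on array 2 for BMAL2. CIART, a repressor of CLOCK and BMAL1, read 0.178 and 0.191 on arrays 1 and 2 and had no value on array 3. Of listed genes outside the loop with values on the same arrays only, WDR5 read -0.219 and -0.213 and CRTC3 read -0.166 and -0.183. In the limma fit that asked for values on 2 arrays, CIART passed higher and WDR5 and CRTC3 passed lower (adjusted p = 0.0462, 0.0379 and 0.0491). The other listed genes, nuclear receptors included, that had no mean over 3 arrays but entered that fit did not pass (limma adjusted p of 0.0511 or more). NPAS2, the CLOCK relative, read 0.0711 and HLF, a relative of DBP, read 0.108, each on array 3 alone. TEF, another DBP relative, had 3 incomplete probes between -0.0258 and 0.147.

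Genes reported as repressed by REV-ERB, in part from mouse, split. Of 8 with a mean, 3 rose, 1 fell and 4 did not pass, with a median of 0.0542. BMAL1 and NFIL3 were 2 of those that rose. IL6, the cytokine interleukin-6, was the other, at 0.284, 0.22 and 0.231 with a mean of 0.245 ± 0.0341 (n = 3, limma adjusted p = 0.00971). CCL2, a chemokine that attracts monocytes, fell, at -0.147, -0.0625 and -0.0977 with a mean of -0.102 ± 0.0425 (n = 3, limma adjusted p = 0.0413). INSIG2, ULK1, LPL and STK11 did not pass, with means between -0.0136 and 0.108. Of the E-box controlled outputs outside the loop, 1 of 5 rose and 0 fell by limma, nor did any fall at an unadjusted p under 0.05. KLF10, a TGF-β-inducible zinc-finger factor, was that gene, at 0.313, 0.301 and 0.195 with a mean of 0.27 ± 0.0651 (n = 3, limma adjusted p = 0.0110). KLF9, NAMPT, KLF11 and PPARD did not pass, and KLF11 read -0.238, -0.207 and 0.193, so that array 3 differed in sign.

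Cofactors also went both ways. TBL1X and TBL1XR1, related subunits of the NCOR and HDAC3 complex through which REV-ERB represses, both fell. TBL1X read -0.208, -0.184 and -0.269 with a mean of -0.22 ± 0.0437 (n = 3, limma adjusted p = 0.0110), and TBL1XR1 read -0.135, -0.144 and -0.199 with a mean of -0.159 ± 0.0346 (n = 3, adjusted p = 0.0154). Further TBL1XR1 probes, each with values on 2 arrays, averaged 0.0324 and 0.000767. With them the TBL1XR1 mean was -0.121 (limma adjusted p = 0.0414). The 6 other corepressor genes with a mean did not pass, and HDAC3 had a single reading of -0.0297 on array 3. Among 6 genes listed as cofactors of CLOCK and BMAL1, 3 rose and 1 fell. The acetyltransferase EP300 rose by 0.209 ± 0.0606, the deacetylase SIRT1 by 0.124 ± 0.052 and the acetyltransferase KAT2B by 0.0792 ± 0.0199 (n = 3 each, limma adjusted p = 0.0146, 0.0335 and 0.0488). The methyltransferase KMT2A fell, with a mean of -0.0927 ± 0.0313 (n = 3, limma adjusted p = 0.0411), which joins a probe at -0.171 and one at -0.014. The first of these alone gave an adjusted p of 0.0135. KAT2B lost its call when arrays were centred and on its first probe (limma adjusted p = 0.0512 and 0.0639).

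Of 10 kinases and phosphatases that act on clock proteins, 0 rose and 2 fell by limma, with 1 higher at an unadjusted p under 0.05. CSNK1E, which phosphorylates PER proteins, read -0.0997, -0.0732 and -0.123 with a mean of -0.0986 ± 0.0248 (n = 3, limma adjusted p = 0.0322). PPP1CB, a catalytic subunit of protein phosphatase 1, averaged -0.135 ± 0.0266 (n = 3, limma adjusted p = 0.0181). CSNK1D, the close relative of CSNK1E, did not pass (mean -0.0594, adjusted p = 0.0801), and its probes differed in sign, at -0.175 on NM_001893 and 0.0568 on AB209463. The first of these alone passed (adjusted p = 0.0135). Of 7 ubiquitin ligase and deubiquitinase genes, FBXW7, a receptor subunit that targets REV-ERBα, rose by 0.216 ± 0.114 and UBE3A, a ligase known from Angelman syndrome and reported to target BMAL1, fell, with a mean of -0.139 ± 0.0279 (n = 3 each, limma adjusted p = 0.0318 and 0.0174). Neither kept its call on its first probe alone, at 0.114 for FBXW7 and -0.0504 for UBE3A (adjusted p = 0.0760 and 0.152). Of 7 genes of cAMP and glucocorticoid input, 2 passed on the higher side and 0 on the lower side by limma, with 0 lower at an unadjusted p under 0.05. FKBP5, a chaperone gene that glucocorticoids induce, rose by 0.161 ± 0.0388, and the kinase SIK1, which cAMP signalling induces, passed with a mean of 0.0969 ± 0.032 (n = 3 each, limma adjusted p = 0.0158 and 0.0381). The SIK1 mean joins probes of opposite sign on every array, one at 0.327, 0.317 and 0.43 and the other at -0.172, -0.158 and -0.163, so it gives no settled direction, and the first of them alone averaged 0.358 (adjusted p = 0.0113). The receptor gene NR3C1 averaged 0.0252 and did not pass (adjusted p = 0.411), and its 3 probes disagreed, with means of 0.0549, -0.0923 and 0.113.

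**Figure D4:**
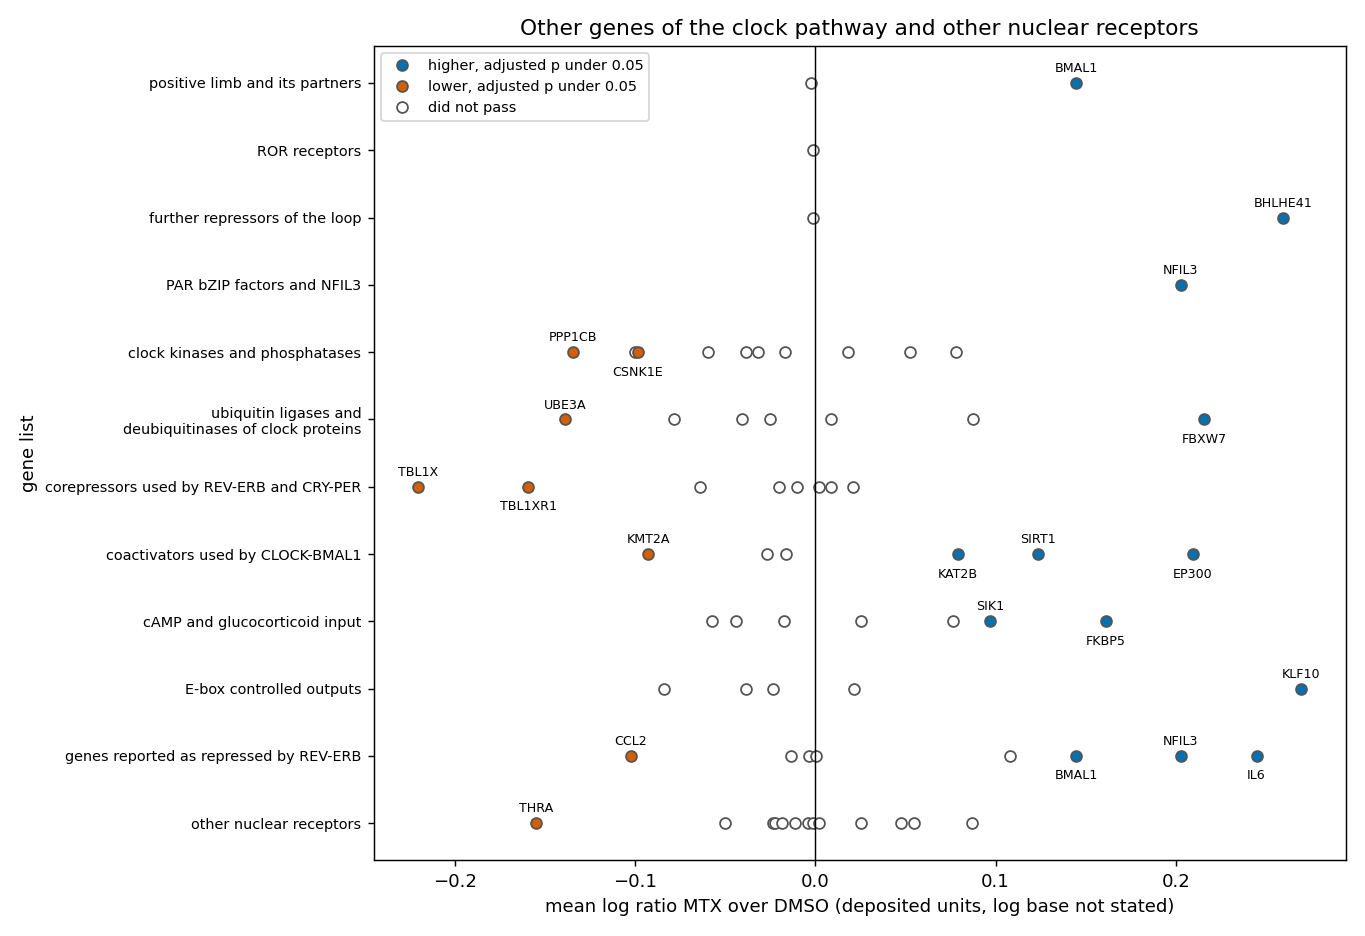
Mean log ratio of MTX over DMSO (deposited units, horizontal axis) of each measured gene of 11 clock lists and of the other nuclear receptors (rows), filled where the limma adjusted p was under 0.05 and open otherwise; a gene in several lists appears in each. BHLHE41, NFIL3, BMAL1, IL6 and KLF10 lie to the right, TBL1X and TBL1XR1 lie to the left, and of the other nuclear receptors only THRA is filled.

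NR1D2 and NR1D1 belong to the nuclear receptor family, ligand-regulated factors that share a zinc-finger DNA-binding domain. Of 42 other receptor genes listed, 28 had a value and 13 had a mean over 3 arrays. Among the 13, 0 rose, 1 fell and 12 did not pass by limma, with 2 at an unadjusted p under 0.05. Over all 9394 genes 29.0% passed, and 4265 had an unadjusted p under 0.05. THRA was the receptor that fell, and the means of the others lay between -0.0501 and 0.087, beside -0.37 for NR1D2. The median of the 13 was -0.00414. By array profile, the 5 genes closest to NR1D2, measured as Euclidean distance over the 3 arrays, were RPL23AP53, a ribosomal protein pseudogene (distance 0.0481), S100A6, a calcium-binding protein (0.0545), RPL10L, a ribosomal protein copy gene (0.0631), GARS1, the glycyl-tRNA synthetase (0.0731), and LMNB1, lamin B1 (0.0749). Their means lay between -0.375 and -0.334, and whether a probe separates RPL23AP53 and RPL10L from their near-identical relatives was not tested. With 3 points this likeness describes level and evenness only.

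Across the series, 21224, 25272 and 25927 spots had a value on arrays 1, 2 and 3, and no depth applies to such ratios, so the number of arrays limits the precision. Separate cultures are not stated for the arrays, so each p-value reflects array-to-array spread that may be technical only. Over all genes limma made 2726 calls, against 4287 without array 3 and 0 without array 1 (2938 at an unadjusted p under 0.05) or without array 2 (2387 likewise). Of 8 bronchial epithelial markers 5 had values, with EPCAM higher at 0.278 and KRT18 lower at -0.159 (limma adjusted p = 0.0158 and 0.0150), and of 8 markers of other cells 5 had values on some array and 2 on all. Ratios give no level, so the cell type could not be checked further, and in bulk RNA fewer expressing cells and less RNA per cell cannot be told apart. Time of day at harvest is not stated in the labels.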

How the data were processed

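Total RNA of MTX-treated BEAS-2B cells (Cy5) and DMSO-treated cells (Cy3) was compared on 3 two-colour arrays. Per the series' design text, the authors labelled with a FairPlay kit, scanned with a GenePix instrument, subtracted the local median background and applied LOWESS normalisation. A significance analysis of microarrays is also named there, without settings. The deposited table holds 1 log ratio per probe and array, whose base is not given in the sources used here. The array medians were 0.00137, 0.00222 and 0.00194, and values were used as deposited. Scanner intensities were not used, so background correction and dim spots could not be varied.

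Of 31615 probes, 22472 had 1 gene symbol in the platform annotation, 80 had several and 9063 had none. RefSeq listed the Entrez numbers of 22444 of them with the same symbol. Probes with values on all 3 arrays were averaged per gene, which gave 9394 genes from 13027 probes. A moderated test of each mean against 0 (limma 3.58.1, functions lmFit and eBayes, under R 4.3.3) was two-sided, and p-values were adjusted by Benjamini-Hochberg over all genes, with a threshold of 0.05. The fit was tested on simulated data. Errors are SDs over arrays.

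The clock genes and the lists were chosen with earlier results of these data known. Genes were named by rule: the 10 clock genes, all listed genes that passed, 14 fixed genes whatever their values, the 5 genes nearest NR1D2 in profile, and the neighbouring genes of NR1D2 and NR1D1. Of the 14, THRB was not analysed here and 1 is not reported here. HDAC3, KLF9, NAMPT, KLF11, PPARD, NR3C1, CIART, WDR5, CRTC3, INSIG2, ULK1, LPL, STK11, EPCAM and KRT18 were named after their values were seen. Alternatives covered centring and scale of arrays, probe choice, values required, robust variances, array weights, single probes and leaving out each array. Promoter windows came from RefSeq (GRCh38.p14). Figures were drawn with matplotlib 3.10.9.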

Additional observations from a re-analysis of the deposited data

How the results depend on the processing

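The sign of all 8 clock gene means was the same under centring, scaling, probes on at least 2 arrays, array weights and the loss of any array. Probe choice among complete probes could change only NR1D2 and CLOCK, which kept their sign, and robust variances cannot change a mean. The means of 3 moved by more than 1 SD over arrays: NR1D2 to -0.444 on its first probe, and NR1D1 to 0.0637 and CRY1 to 0.0725 with probes on at least 2 arrays. Without 1 array at a time the means ranged from -0.385 to -0.357 for NR1D2, 0.141 to 0.165 for NR1D1, 0.105 to 0.167 for PER2, 0.0708 to 0.29 for PER3, 0.0859 to 0.106 for CRY1, 0.0119 to 0.0719 for CRY2, -0.129 to -0.111 for CLOCK and 0.0198 to 0.179 for BHLHE40. Read as base 2 logs, NR1D2 was 1.29-fold lower, against 2.35-fold for base 10.

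Counts of calls depended more on the setting. With probes on at least 2 arrays the fit called 1633 genes (958 higher, 675 lower). With array weights it called 5801 (3176 higher, 2625 lower), against 2726 (1557 higher, 1169 lower) in the main fit. The fit over single probes called 5350 of 17569 probes (2675 higher, 2675 lower). These are probes with or without a symbol, so that count is not set against the counts of genes. Without 1 array the total ran from 0 to 4287, the higher from 0 to 2372 and the lower from 0 to 1915. For the 55 other clock genes array weights gave 32 calls, 16 of them lower, against 18 and 7. Without 1 array the range was 0 to 25 in total, 0 to 13 higher and 0 to 12 lower. Of the 13 other nuclear receptors, 0 passed on first probes, 4 with array weights, and 3 had a called single probe, against 1, with 0 to 2 when an array was left out. Of 29 other named genes, 25 lost their call without array 1 and 25 without array 2, where limma called 0 genes in all (2938 and 2387 at an unadjusted p under 0.05). Elsewhere 8 lost it with probes on at least 2 arrays, namely CCL2, CSNK1E, SIRT1, KAT2B, KMT2A, SIK1, FBXW7 and UBE3A. On first probes 4 lost it (THRA, FBXW7, UBE3A and KAT2B), and under centring 1 did (KAT2B). CSNK1D gained a call on its first probe and with array weights. The causes were not tested. No paired analysis was possible because the arrays form 1 group of ratios, with both RNAs of a pair on the same array.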
